A study of Rattus norvegicus with 5 samples.

Results

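Nqo1, Ptgr1, Ephx1 and Hmox1 are 4 genes linked to NRF2, the transcription factor that answers oxidative and electrophilic stress. They were chosen by their measured difference between MMS Day 2 and Control, where Hmox1 was lower and the other 3 were higher, so the values of that comparison are given as a description and support nothing further. Each gene is represented by the probe sets that carry its symbol and no other, which was 1 probe set per gene. The 4 genes are part of 18166 genes with a symbol of their own on the array. All 4 reached a log2 signal of at least 5 in some array, as did 4033 genes in all, called kept genes here. Nqo1 reached it in treated arrays alone, as did 341 of the kept genes.

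Lenses of 6-week-old male Sprague Dawley rats were kept outside the body in serum-free medium, and the RNA of the whole lens was read on an expression array. The lenses had 1 mM MMS for 4 days (MMS Day 4) or 2 days (MMS Day 2), 800 μg/mL Bleomycin for 6 days (Bleomycin Day 6) or 2 days (Bleomycin Day 2), or normal medium for 4 days (Control). MMS, methyl methanesulfonate, adds methyl groups to DNA, whereas Bleomycin cuts DNA by way of oxygen radicals that it forms together with a metal. A condition was read on 1 array, so the differences carry no measure of replicate error, no test was made, and the same Control array enters all comparisons with Control.

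MMS Day 4 and Control had equal days in culture, and so had MMS Day 2 and Bleomycin Day 2. In all other pairs across drugs, or of a drug with Control, the days differ along with the drug and cannot be told apart from it. Values are log2 signals, a difference is one log2 signal minus another, and genes are called at least 2-fold apart where the difference reaches 1 in either direction.

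In unstressed cells KEAP1 hands NRF2 to the CUL3 ubiquitin ligase for destruction. Electrophiles modify KEAP1, NRF2 then builds up, and with a small MAF partner it binds antioxidant response elements in its target genes. NRF2 is controlled largely at the protein level, so the RNA of its own gene need not follow its activity. BACH1, a repressor that heme displaces, binds the same elements and is known for holding Hmox1 down. In the lens, where proteins last for life and light adds to oxidation, the targets of NRF2 are known as part of the antioxidant defense.

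Promoter windows are shown so that the sequence at the start of the genes can be read for the element that NRF2 binds. RefSeq windows of build GRCr8, from 250 bases before to 50 bases after an annotated start, were matched for these 2 of the 4 genes, with 1 window for Nqo1 and 2 for Ephx1. Each reads 5′ to 3′ on the strand of the gene, and capitals mark every match to the motifs searched. These were TGACNNNGC (core of the antioxidant response element), TGANTCA (AP-1), GCGTG (core of the AHR site), CACGTG (E-box), GGGCGG (GC box), CCAAT and TATAAA, on both strands.
Nqo1, chr19:52220218-52220517, minus strand: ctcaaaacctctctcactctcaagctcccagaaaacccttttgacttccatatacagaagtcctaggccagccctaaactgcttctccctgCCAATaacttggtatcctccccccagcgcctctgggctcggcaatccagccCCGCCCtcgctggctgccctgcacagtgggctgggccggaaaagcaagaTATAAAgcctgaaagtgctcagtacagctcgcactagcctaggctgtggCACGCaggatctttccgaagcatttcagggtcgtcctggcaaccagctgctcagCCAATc
Ephx1 at its upstream start, chr13:95275803-95276102, minus strand: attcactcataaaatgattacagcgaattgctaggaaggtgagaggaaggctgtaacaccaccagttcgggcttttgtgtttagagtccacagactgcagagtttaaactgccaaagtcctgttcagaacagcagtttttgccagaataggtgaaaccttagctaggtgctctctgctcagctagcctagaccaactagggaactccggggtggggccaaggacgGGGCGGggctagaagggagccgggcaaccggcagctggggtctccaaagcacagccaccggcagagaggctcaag
Ephx1 at its downstream start, chr13:95263068-95263367, minus strand: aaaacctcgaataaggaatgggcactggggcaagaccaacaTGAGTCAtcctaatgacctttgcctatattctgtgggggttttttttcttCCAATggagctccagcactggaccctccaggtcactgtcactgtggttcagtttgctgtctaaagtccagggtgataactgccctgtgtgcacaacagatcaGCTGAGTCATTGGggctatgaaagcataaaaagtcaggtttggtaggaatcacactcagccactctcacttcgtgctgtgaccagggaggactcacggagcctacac

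At the downstream Ephx1 start, GCTGAGTCA, which begins 57 bases before the start, matches the antioxidant response element core on the opposite strand and overlaps an AP-1 match that begins 55 bases before the start. A further AP-1 match begins 209 bases before it. Of all 33469 windows of this length in the RefSeq table, 12.1% hold the antioxidant response element core and 7.33% hold the AP-1 motif. The antioxidant response element core and the AP-1 motif have no match in the Nqo1 window or at the upstream Ephx1 start, which says only that these letters are not in these windows. The Nqo1 window holds TATAAA 59 bases and CCAAT 159 bases before its start, and a match to the AHR core 10 bases before it. TATAAA occurs in 14.2% of all windows, CCAAT in 37.5% and the AHR core in 29.7%. The GC box, found in 33.1% of all windows, occurs in the Nqo1 window and at the upstream Ephx1 start, and the E-box, found in 6.42%, occurs in none of these windows. A match is a string of letters, and binding was not tested.

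Nqo1, a quinone reductase that transfers 2 electrons at once and so avoids reactive semiquinones, had a log2 signal of 5.43 on Day 4 and 7.64 on Day 2 of MMS, and of 5.76 on Day 6 and 4.08 on Day 2 of Bleomycin, against 3.55 in Control. It was highest in the earlier MMS array, intermediate in the later array of either drug, and under a signal of 5 on Day 2 of Bleomycin and in Control. Its difference from Control was 1.89 on Day 4 and 4.10 on Day 2 of MMS, or 3.69-fold and 17.1-fold, and 2.22 on Day 6 and 0.54 on Day 2 of Bleomycin, or 4.64-fold and 1.45-fold. No kept gene lay further above Control than Nqo1 on Day 2 of MMS. Its rank from the top among 4033 kept genes was 10 on Day 4 of MMS, 9 on Day 6 of Bleomycin and 182 on Day 2 of Bleomycin.

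Ptgr1, prostaglandin reductase, which saturates the reactive double bond of lipid aldehydes and of oxidized prostaglandins, had 5.41 on Day 4 and 8.06 on Day 2 of MMS, and 5.21 on Day 6 and 5.60 on Day 2 of Bleomycin, against 5.60 in Control. MMS Day 2 stood alone, 2.47 above Control (5.54-fold, rank 4 of 4033). The other treated arrays had differences of -0.19 (MMS Day 4), -0.39 (Bleomycin Day 6) and 0.00 (Bleomycin Day 2). The deposited values of Bleomycin Day 2 and Control were exactly equal, as they were for 18.0% of all probe sets between these arrays.

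Ephx1, the microsomal epoxide hydrolase that opens reactive epoxides to diols, had 4.38 on Day 4 and 6.18 on Day 2 of MMS, and 5.12 on Day 6 and 5.25 on Day 2 of Bleomycin, against 5.05 in Control. It too was highest on Day 2 of MMS, by 1.13 or 2.19-fold over Control (rank 35), and it was lowest on Day 4 of MMS, with a difference of -0.67. Its differences on Day 6 and Day 2 of Bleomycin were 0.08 and 0.20.

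Hmox1, the inducible heme oxygenase, which cleaves heme into biliverdin, carbon monoxide and iron, had 6.65 on Day 4 and 6.63 on Day 2 of MMS, and 7.39 on Day 6 and 7.26 on Day 2 of Bleomycin, against 10.11 in Control. Every treated array lay far below Control, and the arrays of a drug lay close to each other. The differences from Control were -3.46 and -3.48 on Day 4 and Day 2 of MMS (11.0-fold and 11.2-fold lower), and -2.72 and -2.85 on Day 6 and Day 2 of Bleomycin (6.58-fold and 7.23-fold lower). Counted from the lowest of 4033, Hmox1 ranked 22 and 4 in those MMS arrays and 51 and 23 in those Bleomycin arrays. In RNA of a whole lens, fewer cells with a transcript and less of it per cell cannot be told apart.

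**Figure D1:**
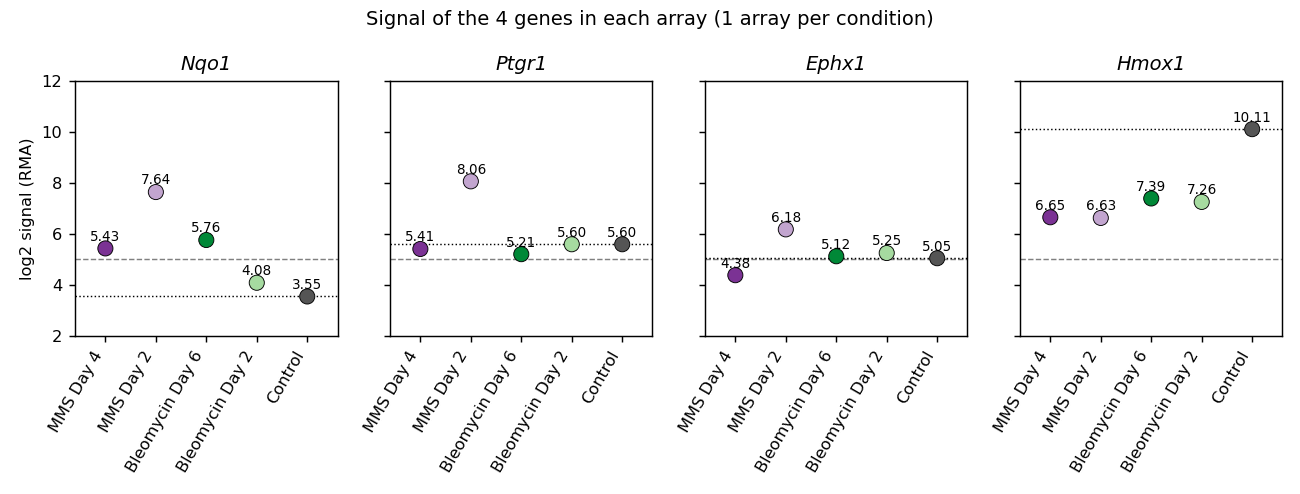
Log2 signal (RMA, vertical axis) of Nqo1, Ptgr1, Ephx1 and Hmox1 in each array; a point is 1 array, the dotted line is the Control value and the dashed line the filter at 5. MMS Day 2 is the highest array for Nqo1 (7.64), Ptgr1 (8.06) and Ephx1 (6.18), while Control is the highest for Hmox1 (10.11).

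On Day 2 of MMS, the comparison that chose the genes, 3 of the 4 genes lay at least 2-fold above Control, as did 1.19% of kept genes, and 1 lay at least 2-fold below it, as did 9.47%. On Day 4 of MMS 1 gene was higher and 1 lower, against 1.26% and 27% of kept genes. For Bleomycin, Day 6 had 1 gene higher and 1 lower, against 1.41% and 19.6%, and Day 2 had 0 higher and 1 lower, against 0.818% and 9.4%. Where 1 gene was higher it was Nqo1, and the lower gene was Hmox1 each time. The median difference from Control over all kept genes was itself below 0, at -0.46 and -0.15 on Day 4 and Day 2 of MMS and at -0.28 and -0.14 on Day 6 and Day 2 of Bleomycin. Relative to that shift Hmox1 stood at -3.34 to -2.44 over the treated arrays and Nqo1 at 0.68 to 4.24. Ptgr1 on Day 4 of MMS stood at 0.27 relative to it, against -0.19 as deposited, so that the sign of this small difference depends on the scaling.

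Between the drugs on Day 2, at equal culture time, Nqo1 was higher in MMS by 3.56, or 11.8-fold, and ranked 2 of 4033. Ptgr1 was higher by 2.47 (rank 7) and Ephx1 by 0.93 (rank 67), and Hmox1 had a difference of -0.63. At least 2-fold higher were 2 of the 4 genes and 0 were lower, against 1.39% and 0.521% of kept genes, in a comparison that shares the MMS Day 2 array with the choice of the genes. In the later arrays no member reached 2-fold. MMS Day 4 minus Bleomycin Day 6 was -0.33 for Nqo1, 0.20 for Ptgr1, -0.74 for Ephx1 and -0.74 for Hmox1, and 0.893% of kept genes were at least 2-fold higher and 4.29% lower. Neither of these later arrays was used to choose the genes.

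Between the days of MMS, the 3 genes that were high on Day 2 were lower on Day 4. Ptgr1 had a Day 4 minus Day 2 difference of -2.65, rank 4 of 4033 from the lowest, Nqo1 of -2.21 (rank 10) and Ephx1 of -1.80 (rank 23), and Hmox1 differed by 0.03. So 3 of 4 were at least 2-fold lower and 0 higher, against 7.84% and 0.198% of kept genes, and here too the array that chose the genes enters. The days of Bleomycin share no array with that choice. Nqo1 was higher on Day 6 than on Day 2 of Bleomycin by 1.68, or 3.20-fold, and ranked 7 from the top. Ptgr1 had -0.39, Ephx1 -0.13 and Hmox1 0.14. At least 2-fold higher was 1 gene and 0 were lower, against 0.521% and 4.04% of kept genes. Nqo1 was the member of the 4 whose later array was lower with MMS and higher with Bleomycin, by at least 2-fold each.

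**Figure D2:**
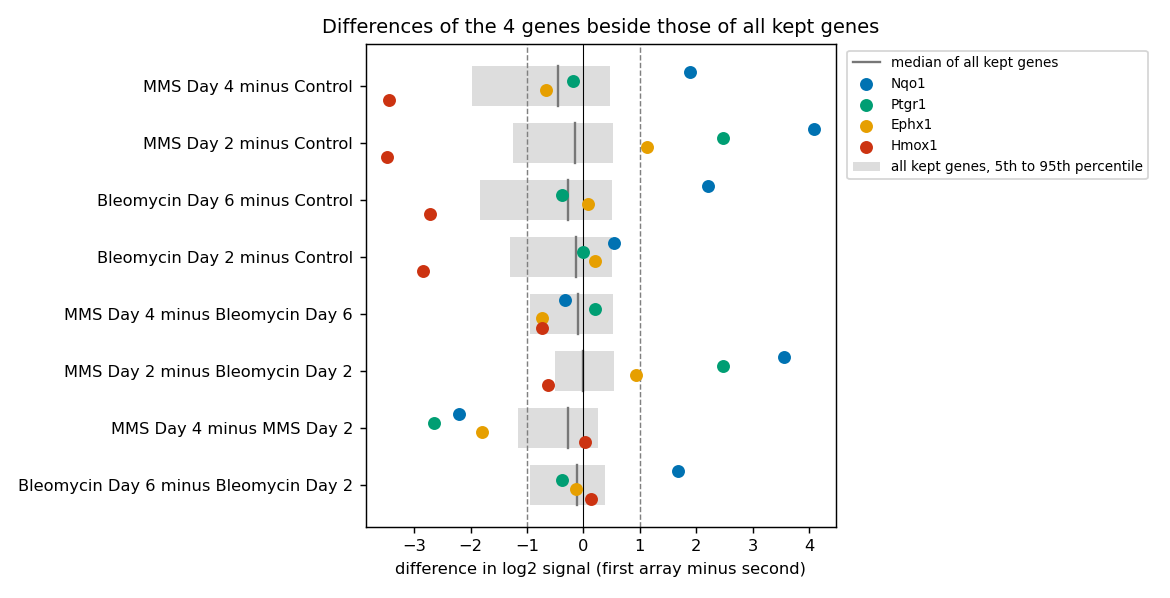
Difference in log2 signal (horizontal axis) of the 4 genes in 8 comparisons; colored points are the genes, grey bars span the 5th to 95th percentile of all 4033 kept genes, grey ticks their median, and dashed lines mark 2-fold. Hmox1 lies left of the grey bar in every treated array against Control, between -3.48 and -2.72, and Nqo1 lies right of it in all 4, from 0.54 to 4.10.

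In every treated array the close relatives of the 4 enzymes lay nearer to Control than Nqo1 and Hmox1 did. They were not always nearer than Ptgr1 and Ephx1. The kept relative Cyb5r3 had -0.38 on Day 2 of Bleomycin, where Ptgr1 had 0.00 and Ephx1 0.20. Of 16 related reductases, hydrolases and oxygenases on the array 6 were kept, and 0 of the 16 reached 2-fold in any treated array as deposited. With each array centered on its olfactory receptor probe sets, 2 kept relatives were at least 2-fold lower on Day 4 of MMS and 1 on Day 6 of Bleomycin. Nqo2, the other quinone reductase of the family, had a signal of 3.48 on Day 4 and 3.66 on Day 2 of MMS, against 3.09 in both Bleomycin arrays and in Control. Hmox2, the heme oxygenase that cells make without induction, had 4.36 on Day 4 and 4.01 on Day 2 of MMS, and 4.69 on Day 6 and 4.21 on Day 2 of Bleomycin, against 4.58 in Control. Ptgr2 lay between 3.46 and 3.93 in all 5 arrays, Ephx2 between 2.51 and 2.63, and Ephx3 between 2.02 and 2.30. Ptgr3 and Ephx4 had the same value in all 5 arrays, 4.24 and 2.21. These 7 genes lay under the filter. Among the kept relatives, Akr1b1, the aldose reductase, had 9.73 on Day 4 and 10.33 on Day 2 of MMS, and 9.39 on Day 6 and 10.07 on Day 2 of Bleomycin, against 9.98 in Control.

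Of 17 regulators of NRF2 on the array 13 were kept, and 0 were at least 2-fold higher in any treated array. At least 2-fold lower were 4 on Day 4 and 2 on Day 2 of MMS, where 27% and 9.47% of all kept genes were, and 1 on Day 6 and 2 on Day 2 of Bleomycin, where 19.6% and 9.4% were. Their median was -0.36 and -0.14 in those MMS arrays, beside -0.46 and -0.15 for all kept genes, and -0.13 in each Bleomycin array, beside -0.28 and -0.14. With arrays centered on the median of kept genes it was 0.27 and 0.15 in the MMS arrays, beside 0.17 and 0.14 for all kept genes. Nfe2l2, which encodes NRF2 itself, had a log2 signal of 4.25 on Day 4 and 6.11 on Day 2 of MMS, and 6.75 on Day 6 and 6.00 on Day 2 of Bleomycin, against 6.11 in Control. Its signal was thus level with Control in the array where Nqo1, Ptgr1 and Ephx1 were highest, and it had a difference of -1.86 on Day 4 of MMS. The deposited Nfe2l2 values of MMS Day 2 and Control were exactly equal, as they were for 18.4% of all probe sets between these arrays. Keap1 had a difference of -0.53 on Day 4 of MMS and -0.13 in the other treated arrays, and Bach1, under the filter, lay between 4.02 and 4.03 in all 5 arrays. Sqstm1, the autophagy receptor p62, which binds KEAP1 and is an NRF2 target too, had -2.34 and -2.32 on Day 4 and Day 2 of MMS, and -0.67 and -1.63 on Day 6 and Day 2 of Bleomycin. Gsk3b, a kinase that marks NRF2 for a further ubiquitin ligase, had -1.94 and -1.02 on those days of MMS, and -1.47 and -1.02 on those days of Bleomycin. Cul3 was the fourth regulator at least 2-fold lower on Day 4 of MMS, with -1.21.

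Other known targets of NRF2 lay on both sides of Control. Of 38 on the array 22 were kept. Day 4 of MMS had 0 of these at least 2-fold higher and 4 lower, and Day 2 of MMS had 2 higher and 2 lower, against 1.26% and 27%, and 1.19% and 9.47%, of all kept genes. Either day of Bleomycin had 1 higher and 2 lower, against 1.41% and 19.6% on Day 6 and 0.818% and 9.4% on Day 2. Their median was -0.23 and 0.08 on Day 4 and Day 2 of MMS, and 0.05 and -0.13 on Day 6 and Day 2 of Bleomycin. Gstp1, a glutathione transferase, had -0.18 and 1.48 on those days of MMS, and -0.96 and -0.83 on those days of Bleomycin, so that it was high on Day 2 of MMS alone, as Ptgr1 was. Abcc4, an efflux pump, had -1.73 and -1.43 in the MMS arrays, and -1.44 and -1.85 in the Bleomycin arrays, low in every treated array as Hmox1 was. Osgin1, a growth inhibitor induced by oxidative stress, had 1.49 and 1.00 on Day 6 and Day 2 of Bleomycin, and it was the target higher in these arrays. Named after their values were seen, Aldh3a1, an aldehyde dehydrogenase, was the other target higher on Day 2 of MMS, by 1.20. Gclm, of glutathione synthesis, had -1.18 on Day 4 of MMS and -1.28 on Day 6 of Bleomycin, and Idh1, a source of NADPH, had -1.16 on Day 4 of MMS. With Sqstm1 and Abcc4 these are all the kept targets at least 2-fold apart.

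Kept targets with a Control signal under 5 entered through a treated array, so all 38 were also counted with no signal filter. On Day 4 of MMS 0 lay at least 2-fold higher and 6 lower, against 2.33% and 8.1% of all 18166 genes. On Day 2 of MMS 5 were higher and 2 lower, against 0.738% and 2.85%. For Bleomycin, Day 6 had 3 higher and 4 lower, against 1.66% and 6.11%, and Day 2 had 1 higher and 4 lower, against 0.644% and 3.07%. The targets added on Day 2 of MMS, named after their values were seen, were Gsta1, a glutathione transferase (2.52), Akr1b8, an aldo-keto reductase (1.60), and Srxn1, sulfiredoxin, which restores oxidized peroxiredoxins (1.18). The Control signals of Gsta1 (2.28) and Akr1b8 (1.48) lay below the median of every array, so the size of their differences is poorly resolved. Gsta1 had a signal of 3.01 on Day 4 and 4.80 on Day 2 of MMS, and of 3.50 on Day 6 and 1.57 on Day 2 of Bleomycin, against 2.28 in Control. Its 3 highest arrays came in the same order as those of Nqo1, with MMS Day 2 at the top, then Bleomycin Day 6 and MMS Day 4. Slc7a11, the cystine importer, also named after its values were seen, had differences of -1.78 and -0.87 on Day 4 and Day 2 of MMS, and -2.56 and -1.95 on Day 6 and Day 2 of Bleomycin, with a Control signal of 4.86.

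**Figure D3:**
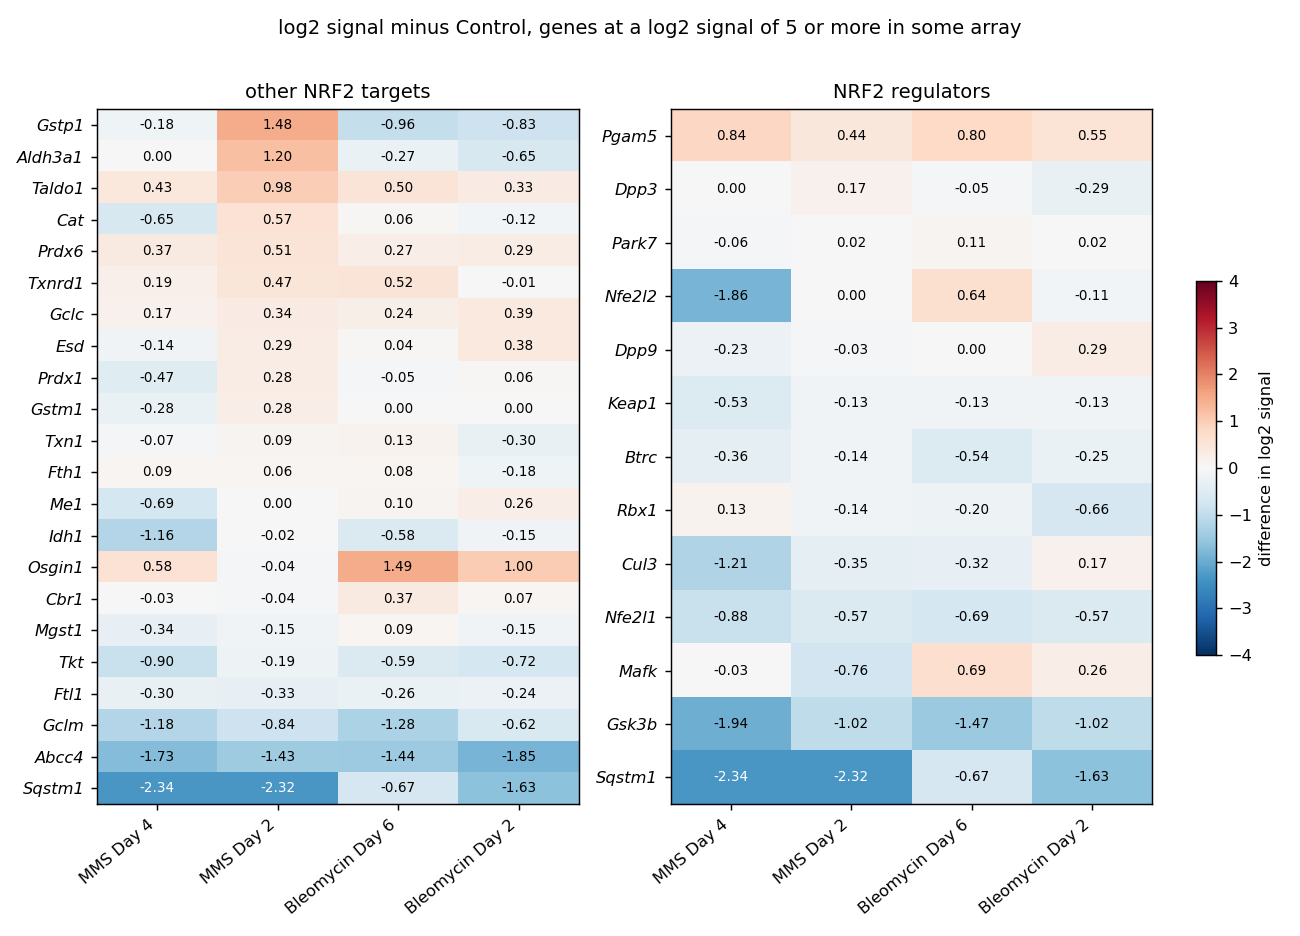
Difference from Control in log2 signal (numbers and color) of the 22 kept targets of NRF2 besides the 4 genes (left) and of its 13 kept regulators (right); columns are the treated arrays. Gstp1 (1.48) and Aldh3a1 (1.20) head the targets in MMS Day 2, and Sqstm1 is the lowest gene on either list in both MMS arrays (-2.34 and -2.32).

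Nqo1 and Ephx1 also answer sensors of foreign compounds, and lists for these were described beside them. The aryl hydrocarbon receptor AHR drives Nqo1 in liver. Of 7 genes of its battery on the array 2 were kept, Aldh3a1, at least 2-fold higher on Day 2 of MMS, and Nfe2l2, at least 2-fold lower on Day 4 of MMS. Of all kept genes 1.19% were higher on that Day 2 and 27% lower on that Day 4. Aldh3a1 passed the filter through MMS Day 2 alone (a signal of 5.23), so all 7 were also counted with no signal filter. Day 4 of MMS had 1 higher and 2 lower, against 2.33% and 8.1% of all 18166 genes. Day 2 of MMS had 2 higher and 0 lower, against 0.738% and 2.85%. Day 6 of Bleomycin had 3 higher and 0 lower, against 1.66% and 6.11%. Day 2 of Bleomycin had 1 higher and 0 lower, against 0.644% and 3.07%. Cyp1a1, a defining AHR target under the filter and named after its values were seen, had 3.53 on Day 6 of Bleomycin and 2.66 to 2.75 in the other treated arrays, against 2.38 in Control. Of the other genes of the battery under the filter, also named after their values were seen, Ahr itself had differences of 1.14 and 1.39 on Day 4 and Day 2 of MMS and of 1.08 in each Bleomycin array, with a Control signal of 2.93. Ahrr, the repressor of AHR, had 1.02 on Day 6 of Bleomycin, and Arnt, the partner of AHR, had -1.77 on Day 4 of MMS. The receptors CAR and PXR drive Ephx1 in liver. Of 12 genes of their response on the array 3 were kept, and in each treated array 1 of these was at least 2-fold higher and 1 lower. Over the treated arrays 0.818 to 1.41% of all kept genes were higher and 9.4 to 27% lower. The higher gene was Abcb1b, a drug efflux pump, with 1.42 and 2.63 on Day 4 and Day 2 of MMS, and 2.36 and 3.38 on Day 6 and Day 2 of Bleomycin. Abcb1b passed the filter through Bleomycin Day 2 alone (a signal of 5.24), and its Control signal of 1.86 lay below the median of every array, so the size of these differences is poorly resolved. The lower gene was Cyp2b1, a cytochrome P450 of drug metabolism, with -4.13 and -4.41 on those days of MMS, and -4.68 and -1.63 on those days of Bleomycin. Cyp2b1 has near-identical family members, so its probe set may read more than its own RNA. Its signals of 2.52 and 2.24 on Day 4 and Day 2 of MMS, and 1.97 on Day 6 of Bleomycin, lay below the median of every array. The size of its differences in these 3 arrays is thus poorly resolved too.

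Around Hmox1, 9 of 28 genes of heme and iron handling on the array were kept, and 0 were at least 2-fold higher in any treated array. At least 2-fold lower were 3 on Day 4 and 0 on Day 2 of MMS, and 2 on either day of Bleomycin, where 27%, 9.47%, 19.6% (Day 6) and 9.4% (Day 2) of all kept genes were. Alad, an enzyme of heme synthesis, had -1.03 and -0.89 on Day 4 and Day 2 of MMS, and -1.57 and -1.17 on Day 6 and Day 2 of Bleomycin. Cp, ceruloplasmin, the copper protein that oxidizes iron, had -1.32 and -0.92 on those days of MMS, and -1.25 and -1.21 on those days of Bleomycin. Urod, a later enzyme of heme synthesis, had -1.01 on Day 4 of MMS. No kept gene of this list was as low as Hmox1 in any treated array.

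HIF, the transcription factor of the response to low oxygen, is also known to induce Hmox1 in the rat. Of 12 kept HIF targets 0 were at least 2-fold higher in any treated array, and 7 were lower on Day 4 and 6 on Day 2 of MMS, as were 7 on Day 6 and 6 on Day 2 of Bleomycin. Of all kept genes 27% and 9.47% were lower in those MMS arrays, and 19.6% and 9.4% in those Bleomycin arrays. Above Control by any amount were 3 of the 12 on either day of MMS, and 1 on Day 6 and 5 on Day 2 of Bleomycin. The median of the HIF targets was -1.63 and -0.85 in those MMS arrays, and -1.22 and -0.81 in those Bleomycin arrays. Some of these targets reached a signal of 5 in Control alone, so all 15 on the array were also counted with no signal filter. Then 7 and 6 were lower in those MMS arrays, against 8.1% and 2.85% of all 18166 genes. In those Bleomycin arrays 8 and 6 were lower, against 6.11% and 3.07%. The medians were -0.90 and -0.62 for MMS, and -1.04 and -0.61 for Bleomycin. Slc2a1, a glucose transporter that is also on the list of epithelial markers, had -4.10 and -1.53 on Day 4 and Day 2 of MMS, and -3.31 on Day 6 of Bleomycin. Ero1a, an oxidase of the endoplasmic reticulum, had -3.72 and -2.31 on those days of MMS, and -3.55 and -2.26 on those days of Bleomycin. Slc2a1 and Ero1a were lower than Hmox1 in the later array of either drug, Slc2a1 was on Day 2 of Bleomycin too, and 0 of the 12 were on Day 2 of MMS.

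Markers of the lens epithelium, the cell layer under the front capsule, were lower along with Hmox1. Of 16 kept markers, 13 were at least 2-fold lower on Day 4 and 9 on Day 2 of MMS, as were 13 on Day 6 and 10 on Day 2 of Bleomycin, and 0 were higher. The shares of all kept genes at least 2-fold lower were 27% and 9.47% in those MMS arrays, and 19.6% and 9.4% in those Bleomycin arrays. The markers' median was -1.62 and -1.05 in those MMS arrays, and -2.01 and -1.57 in those Bleomycin arrays. Some of these markers reached a signal of 5 in Control alone. Over all 20 markers with no signal filter, 13 and 9 were lower in those MMS arrays, and 13 and 10 in those Bleomycin arrays. The shares of all 18166 genes were 8.1% and 2.85%, and 6.11% and 3.07%. The medians were then -1.34 and -0.95, and -1.57 and -1.09. The signal summed over all 20 markers on the array, on the linear scale, was 3121 to 5445 in the treated arrays, against 8981 in Control. This sum rests largely on the brightest marker, Igfbp7, named after its values were seen. The log2 signal of Igfbp7 was 11.21 to 11.93 in the treated arrays, against 12.44 in Control. Of 15 markers of lens fiber cells, 2 were at least 2-fold lower on Day 4 and 0 on Day 2 of MMS, as were 3 on Day 6 and 0 on Day 2 of Bleomycin. Their median difference lay between -0.04 and 0.08, and the summed signal was 33045 to 35967 in the treated arrays, against 33567 in Control. Of 13 markers of macrophages, cells known for high Hmox1, 0 reached a signal of 5 in any array, and their summed signal was 87.2 to 95.6 in the treated arrays, against 97.8 in Control. The macrophage marker of highest signal in Control, Lyz2 (4.32), named after its values were seen, had differences of -1.92 and -1.57 on Day 4 and Day 2 of MMS, and -1.67 and -1.95 on Day 6 and Day 2 of Bleomycin. Markers of red blood cells (0 of 3), fibroblasts (0 of 7), vascular endothelium (0 of 5) and retina (0 of 7) did not reach it either, and of 8 markers of pigment cells 1 did, the transcription factor Mitf. The part of the lower epithelial and Lyz2 signals in the differences of the 4 genes was not tested.

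Centering each array on the median signal of the epithelial markers moves every gene by the same amount and leaves their order as it was. On this scale the median kept gene lay above Control by 1.74 and 1.13 on Day 4 and Day 2 of MMS, and by 2.19 and 1.83 on Day 6 and Day 2 of Bleomycin. Hmox1 had -1.25 and -2.20 on those days of MMS, and -0.25 and -0.88 on those days of Bleomycin, below that median in each array. Its distance from Control thus depends on the scale chosen, and which cells of the lens held its RNA was not measured.

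**Figure D4:**
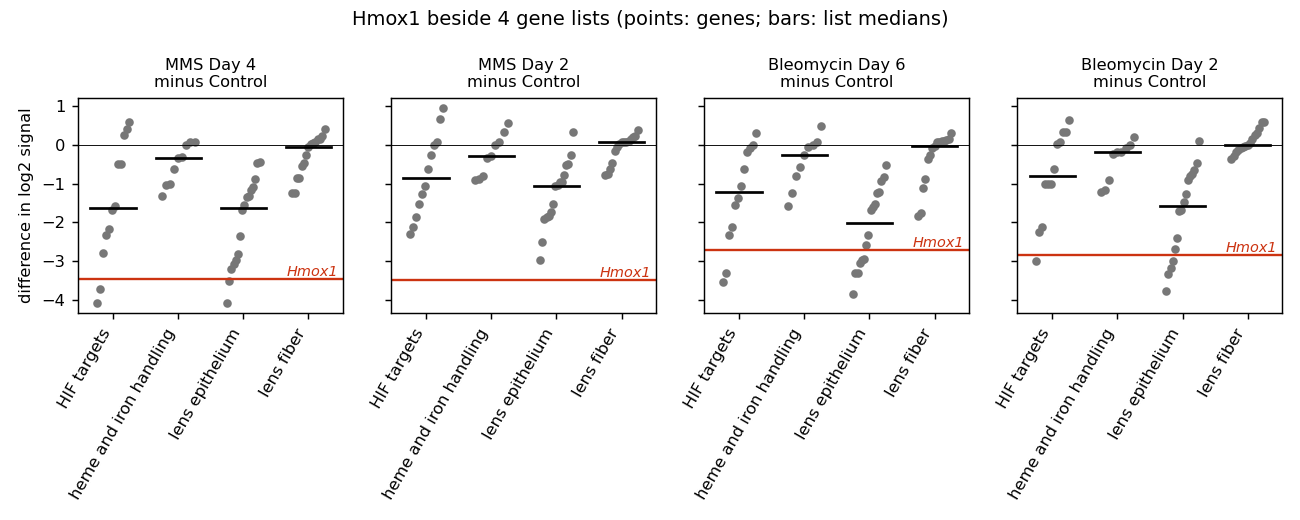
Difference from Control in log2 signal (vertical axis) of the kept genes of 4 lists in each treated array; points are genes, black bars list medians and the red line is Hmox1. Hmox1 lies below every gene of these lists in MMS Day 2 (-3.48), and some epithelial markers lie below Hmox1 in the other 3 arrays.

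The genes of most similar pattern were found by the Euclidean distance between the 4 differences from Control, over 4032 other kept genes. MMS Day 2 minus Control, which chose the 4 genes, is among these differences, and all of them share the Control array, so ranks between the 4 genes are a description. For Hmox1 these were Pdgfra, a growth factor receptor and epithelial marker (distance 0.75), Lpl, lipoprotein lipase (0.88), and Serping1, an inhibitor of the complement system (0.95). Lpl had the same value in all 4 treated arrays, with a difference of -3.40 from a Control signal of 5.91. Serping1 had differences of -3.50 to -3.31 from a Control signal of 5.74. In the treated arrays both thus lay below the median of every array, so the size of their differences is poorly resolved. Hmox1 kept a signal of 6.63 to 7.39 there. For Ephx1 they were Wdr46, of ribosome assembly (0.34), Msn, which ties actin to the cell membrane (0.48), and Slc39a6, a zinc transporter (0.49). For Ptgr1 they were Actn1, an actin crosslinker (1.11), Angptl4, an inhibitor of lipoprotein lipase (1.41), and Gstp1 (1.41), and Ephx1 ranked 6. In turn Ptgr1 ranked 1869 among the genes nearest to Ephx1. For Nqo1 the nearest genes were more distant, namely Gadd45b, a stress and DNA damage response gene (2.18), Bpifb1, a secreted protein of epithelia (2.23), and Cdkn1a, the cell cycle inhibitor p21 (2.40). Cdkn1a had differences of 1.36 and 2.06 on Day 4 and Day 2 of MMS, and 2.29 and 1.70 on Day 6 and Day 2 of Bleomycin. Among the genes nearest to Nqo1, Ptgr1 ranked 49 and Ephx1 254.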

How the data were processed

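RNA of cultured rat lenses was hybridized by the authors to 5 arrays (Rat Gene 2.0 ST), 1 per condition. The deposited values are log2 signals that the authors computed in R by RMA (Robust Multi-array Average), a method that removes background, equalizes the arrays and gives 1 value per probe set. The version is not given in the sources used here. The number of arrays limits the precision, and the array medians were 2.84 to 3.02 over 36685 probe sets. The values were used as deposited.

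Symbols came from the platform annotation, where 18511 probe sets had 1 symbol, 575 had more than 1, and 18394 of those with 1 symbol were found in a RefSeq table of the rat. Probe sets of a gene were averaged. The filter (log2 signal of at least 5 in some array) and the 2-fold rule follow the study's methods. No test was possible, so differences, ranks, counts and medians are descriptions. The lists cover relatives of the 4 enzymes, NRF2 regulators, other NRF2 targets, heme and iron handling, the AHR battery, the CAR and PXR response, HIF targets, lens epithelium and fiber, macrophages, red blood cells, fibroblasts, pigment cells, vascular endothelium and retina. Some genes stand on several lists, such as Sqstm1 and Aldh3a1. The 4 genes and all lists were chosen with earlier results of these data known. Named genes are the 4 genes, relatives and regulators, up to 4 kept genes of each other pathway list with the greatest difference, and the 3 nearest patterns of each gene; others are said to be chosen after their values were seen.

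Alternatives were 4 other scalings, the brightest probe set of a gene, other signal filters, and all named or all probe sets. The steps were tested on simulated data. Python 3.11.15, numpy 2.4.6, pandas 2.3.3 and matplotlib 3.10.9 were used.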

Additional observations from a re-analysis of the deposited data

Results flagged for a closer look

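Between the days of treatment Nqo1 differed in opposite directions for the 2 drugs. Its log2 difference was -2.21 for MMS Day 4 minus MMS Day 2, and 1.68 for Bleomycin Day 6 minus Bleomycin Day 2, so that the MMS difference lay below the Bleomycin difference by a value of -3.89. The signals were 5.43 in MMS Day 4 and 7.64 in MMS Day 2, and 5.76 in Bleomycin Day 6 and 4.08 in Bleomycin Day 2. With 1 array per condition the difference between the drugs was not tested, and the later arrays also differ in days of culture. The MMS difference uses the MMS Day 2 array, whose value of Nqo1 entered the choice of the genes, so it is a description. The Bleomycin Day 2 signal lay under the filter at 5.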

How the results depend on the processing

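The differences of the 4 genes in 8 comparisons were recomputed with other scalings. All 32 stayed within 0.6 of their value and on their side of 2-fold with quantile normalization, and none that was at least 2-fold reversed under any scaling. Taking the brightest probe set of a gene could not change these values, since each of the 4 genes has 1 probe set. With each array centered on the median over kept genes, 4 values moved, all in MMS Day 4 against Control: Nqo1 to 2.51, Ptgr1 to 0.44, Ephx1 to -0.04 and Hmox1 to -2.83. There the small differences of Ptgr1 turned positive in MMS Day 4 and in Bleomycin Day 6 (0.08). With centering on 70 olfactory receptor probe sets, Ephx1 was just under 2-fold in MMS Day 2 (1.00 as rounded) and was called lower in MMS Day 4 (-1.03). With centering on the epithelial markers 26 values moved. Against Control, Day 4 and Day 2 of MMS had 4.09 and 5.38 for Nqo1, 2.02 and 3.75 for Ptgr1, 1.54 and 2.41 for Ephx1, and -1.25 and -2.20 for Hmox1, and Day 6 and Day 2 of Bleomycin had 4.69 and 2.51 for Nqo1, 2.08 and 1.97 for Ptgr1, 2.55 and 2.18 for Ephx1, and -0.25 and -0.88 for Hmox1. Between MMS Day 2 and Bleomycin Day 2 they were 2.87 (Nqo1), 1.78 (Ptgr1), 0.24 (Ephx1) and -1.32 (Hmox1), between MMS Day 4 and Bleomycin Day 6 -1.01 (Ephx1) and -1.01 (Hmox1), and between the MMS days -1.29 (Nqo1), -1.73 (Ptgr1), -0.88 (Ephx1) and 0.95 (Hmox1). These shifts follow from the construction, since 1 amount is added to every gene of an array, and the median kept gene then lay 1.13 to 2.19 above Control.

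Counts of other NRF2 targets at least 2-fold apart from Control moved as follows. With no signal filter 5 were higher on Day 2 of MMS, 3 were higher and 4 lower on Day 6 of Bleomycin, and 4 were lower on Day 2 of Bleomycin. With a filter at 6, 2 were lower on Day 4 of MMS, 1 was higher and 1 lower on Day 2 of MMS, and 0 were higher and 1 lower on either day of Bleomycin. With a signal of at least 5 in Control there was 1 higher in MMS Day 2 and 0 in each Bleomycin array. In MMS Day 4 the lower genes were 2 with median centering (with 2 higher) and with quantile normalization, and 7 with centering on olfactory receptors. In Bleomycin Day 6 they were 0 with median centering and 1 with quantile normalization, and in Bleomycin Day 2 the higher genes were 0 with olfactory centering. The share of all kept genes at least 2-fold higher in treated arrays was 0.818 to 1.41% as deposited, 2.38 to 6.6% with median centering and 1.34 to 2.68% with quantile normalization, and the share lower was 9.4 to 27%, 4.54 to 9.77% and 5.23 to 16.4%. With olfactory centering these shares were 0.521 to 1.02% and 13.2 to 41.7%, and over all probe sets, named or not, 2.51 to 5.51% and 10.3 to 24.4%. No paired analysis was possible because each condition has 1 array and the labels carry no replicate number. The study cultured the 2 lenses of an animal with drug and without it, but whether the Control lens shares an animal with a treated lens of these arrays is not given in the labels. Signals under 5 limit what can be seen of Nqo1 in Control and of the relatives.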
